A study of Mus musculus with 14 samples.

Results

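The genes described are the CCN matricellular family and a pair of stretch targets, Ankrd1 and Amotl2, in the lungs of mechanically ventilated wild-type and jnk1-/- mice. They were chosen by name, not by their values: every array probe whose gene symbol is Ccn1, Ccn2, Ccn3, Ccn4, Ccn5, Ankrd1 or Amotl2, or an older synonym of one of these. Ccn1 was formerly called Cyr61, Ccn2 Ctgf, Ccn3 Nov, Ccn4 Wisp1 and Ccn5 Wisp2. The rule found 7 genes, each with 1 probe, among 13923 genes that the probes name.

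Single-colour arrays, 1 for each of 14 mice, measured RNA of the lung. The groups were 4 jnk1-/- mice ventilated with a tidal volume of 10 ml/kg for 8 hours, 3 jnk1-/- controls, 4 wild-type mice ventilated in the same way and 3 wild-type controls. All mice were adults on a C57/BL6 background, and the jnk1-/- mice genetically lack c-Jun-NH2-terminal kinase-1 (JNK1), a stress-activated kinase. All were anesthetized with ketamine and acepromazine. Controls were killed right after anesthesia, whereas ventilated mice received room air from the ventilator through a tracheal cannula and were given pancuronium each hour, so that ventilation, the hours under anesthesia and the relaxant cannot be told apart. RNA came from right lung tissue without sorting of cells, where fewer cells of a type and less RNA per cell cannot be told apart.

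CCN proteins are secreted into the matrix, where they bind integrins, proteoglycans and growth factors and alter how cells respond to them. CCN1 and CCN2 are encoded by immediate early genes that stretched cells induce within hours, through the transcriptional co-activators YAP and TAZ, which act with TEAD factors, and through serum response factor (SRF) and its MRTF co-activators. CCN3 often acts against CCN2, CCN4 was found as a target of WNT1 signaling, and CCN5 lacks the carboxy-terminal domain of the other family members. ANKRD1 is an ankyrin repeat protein of heart muscle nuclei and sarcomeres, and AMOTL2 is a junctional scaffold that binds YAP; the genes of both are widely used as readouts of YAP.

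Promoters are shown for the 3 members that have one in the RefSeq table used here, because these genes are the usual readouts of YAP and TEAD. Each window runs from 250 bases before to 50 bases after the gene start on GRCm38.p6, 5′ to 3′ on the strand of the gene, and the TEAD letters GGAATG, or CATTCC where they lie on the other strand, are in capitals. The windows are chr3:145649936-145650235 on the minus strand for Ccn1, chr19:36119795-36120094 on the minus strand for Ankrd1 and chr9:102717554-102717853 on the plus strand for Amotl2.
Ccn1: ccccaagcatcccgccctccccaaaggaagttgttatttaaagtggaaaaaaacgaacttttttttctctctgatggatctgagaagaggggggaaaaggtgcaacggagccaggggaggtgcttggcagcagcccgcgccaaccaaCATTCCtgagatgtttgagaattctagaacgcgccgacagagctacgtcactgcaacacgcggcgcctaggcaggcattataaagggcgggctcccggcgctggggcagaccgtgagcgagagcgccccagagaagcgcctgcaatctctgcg
Ankrd1: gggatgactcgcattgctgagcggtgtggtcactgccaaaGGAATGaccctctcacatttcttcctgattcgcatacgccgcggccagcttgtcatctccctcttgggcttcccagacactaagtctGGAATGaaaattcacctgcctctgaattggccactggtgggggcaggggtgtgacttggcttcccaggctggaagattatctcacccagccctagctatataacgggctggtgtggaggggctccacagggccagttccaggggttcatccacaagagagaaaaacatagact
Amotl2: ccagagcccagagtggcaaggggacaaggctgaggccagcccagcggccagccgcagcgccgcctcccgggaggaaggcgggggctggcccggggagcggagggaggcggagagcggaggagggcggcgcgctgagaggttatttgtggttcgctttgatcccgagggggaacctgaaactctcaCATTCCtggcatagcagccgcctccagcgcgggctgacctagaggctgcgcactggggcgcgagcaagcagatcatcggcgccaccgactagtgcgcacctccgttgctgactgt

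Ccn1 held the letters once, between bases -103 and -98 from the gene start, and Amotl2 once, between -65 and -60. Ankrd1 held them at -210 to -205 and at -123 to -118. Of 32851 promoter windows of the same length, 14.7% held GGAATG on either strand, and this match is a description of letters, not of binding. The AP-1 letters TGANTCA, which 7.81% of the windows held, and the CArG box of SRF, which 1.63% held, were not found in these 3 windows on either strand.

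Values are normalized log2 intensities, so that 1 unit is a doubling, and levels are compared only within a probe. Differences were tested in limma, each p being adjusted by Benjamini-Hochberg over the 19621 probes of the array, and a change is called at an adjusted p under 0.05. Several arrays stood apart. Over the brighter probes, wild-type control replicates 2 and 3 lay closer to each other (SD of their difference 0.308) than to replicate 1 (0.594 and 0.500). The jnk1-/- control replicates 1 and 2 did likewise (0.313, against 0.686 and 0.665 with replicate 3). These are named the closer control pairs below. Over all probes the jnk1-/- pair stayed closest (0.917, against 1.02 and 1.07), but the wild-type pair did not (1.41, against 1.44 and 1.25). The jnk1-/- controls also had more RNA of skeletal muscle (log2 of the summed markers 13.4 to 13.8) than ventilated jnk1-/- mice (9.83 to 10.4) and wild-type controls (10.5 to 10.6), and more of stratified squamous epithelium (12.7 to 13.6, against 9.31 to 9.79 and 9.41 to 9.60). Their part in the results below was not tested. Mapk8, which encodes JNK1, lay at the floor of the authors' normalized table on 3 of 4 ventilated and 3 of 3 control arrays from jnk1-/- mice, against 2 of 4 and 1 of 3 from wild-type mice, so that its probe checks the genotype little.

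**Figure D1:**
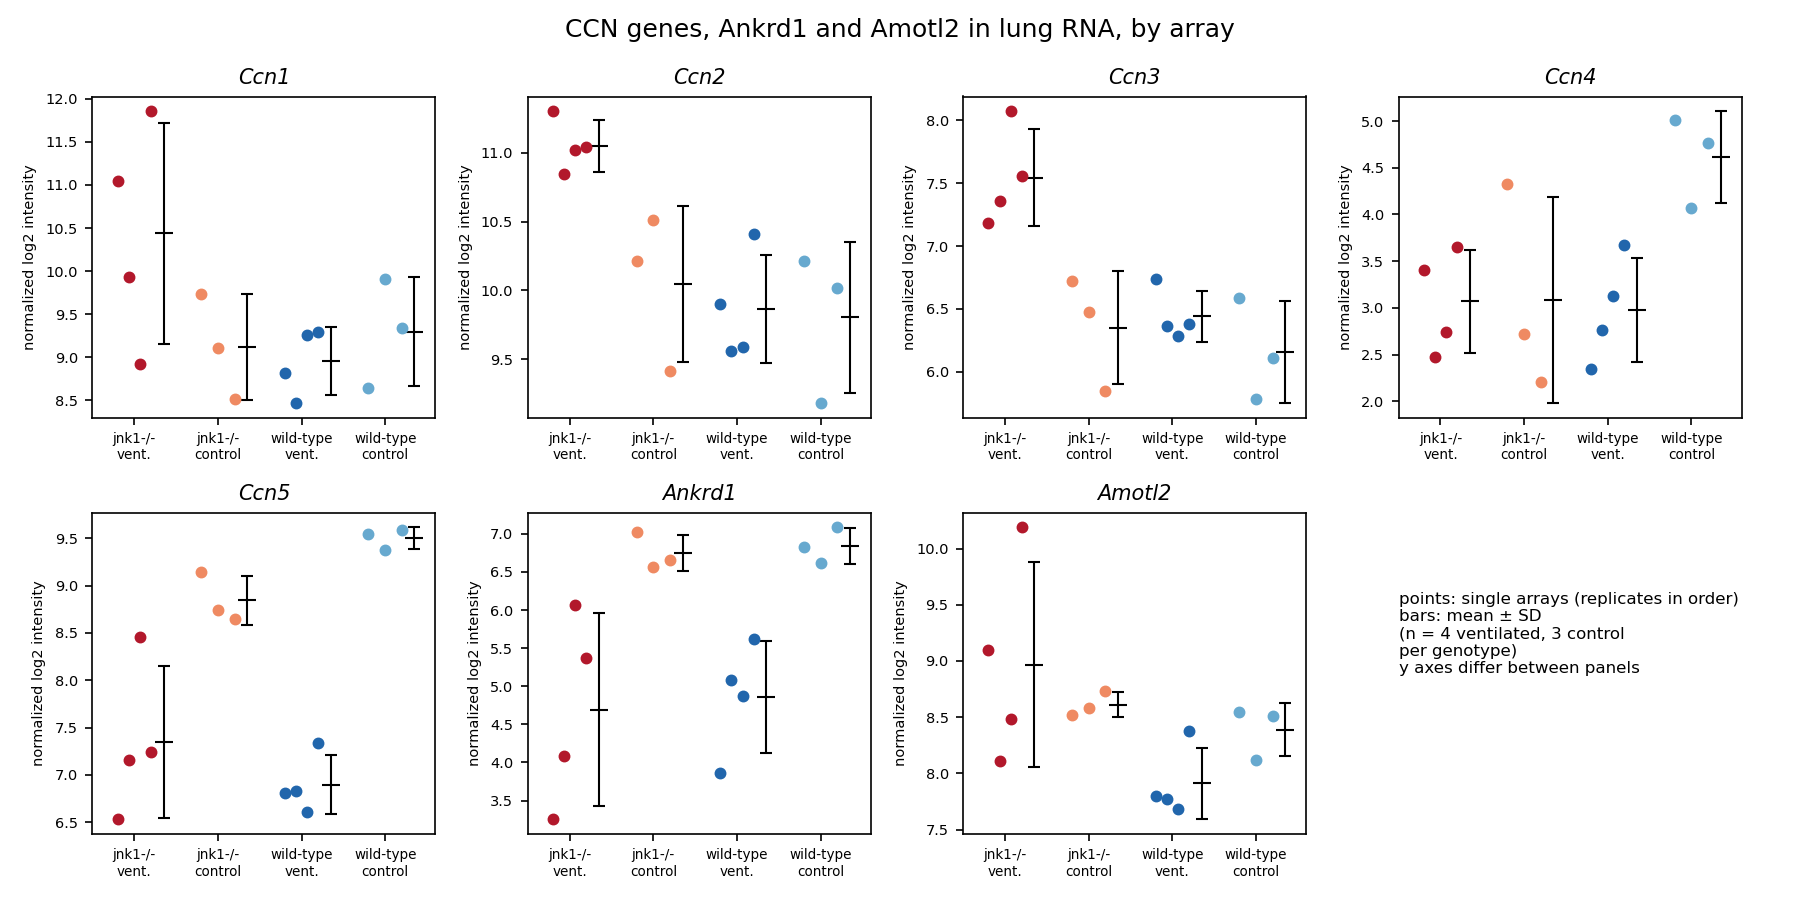
Normalized log2 intensity (y axis, own scale in each panel) of the 7 genes in the 4 groups (x axis), with 1 point per array and the mean ± SD beside the points (n = 4 ventilated and 3 control arrays per genotype). Ccn5 and Ankrd1 were lower on all ventilated arrays of both genotypes than on their controls, and Ccn2 and Ccn3 were higher on the 4 ventilated jnk1-/- arrays than on all others.

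Ccn5 fell after ventilation in both genotypes. Its log2 intensity was 6.53, 7.15, 8.46 and 7.25 in ventilated jnk1-/- mice, against 9.14, 8.74 and 8.64 in jnk1-/- controls. It was 6.81, 6.83, 6.61 and 7.34 in ventilated wild-type mice, against 9.55, 9.37 and 9.58 in wild-type controls. In neither genotype did the ventilated arrays overlap the controls, and jnk1-/- replicate 3, at 8.46, came nearest to them. The change was −2.60 in wild-type lungs (standard error 0.36, adjusted p = 0.00347 from limma), a 6.07-fold lower level, and −1.49 in jnk1-/- lungs (0.36, adjusted p = 0.0212), a 2.82-fold lower level. The difference between these changes was 1.11 (95% interval −0.01 to 2.23, adjusted p = 0.382), so a smaller fall in jnk1-/- lungs was not shown. Ccn5 was lower on all jnk1-/- control arrays than on all wild-type control arrays (−0.66, 95% interval −1.50 to 0.19, adjusted p = 0.353). The study chose Ccn5, as Wisp2, for RT-PCR after seeing these arrays, so its direction here is not independent evidence. From these same arrays and by its own criteria, the study listed Wisp2 as regulated in both genotypes. Its ratios of ventilated to control were 0.16 in wild-type and 0.35 in jnk1-/- mice. The study reported that RT-PCR, too, showed less Wisp2 after ventilation in both genotypes.

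The call on Ccn5 in jnk1-/- lungs was close to the threshold. It was lost without control replicate 1 (adjusted p = 0.0804) or 2 (0.0535) and without ventilated replicate 2 (0.0531) or 4 (0.0517). It was also lost in the methods' own test (0.208) and with only the groups compared in the fit (0.112). The same held with the closer control pairs averaged (0.0842) and with a replicate block (0.0569). The call was kept in 9 of 17 alternatives, while the change stayed between −1.86 and −1.22 over all of them. In wild-type lungs it was lost only with wild-type control replicates 2 and 3 both left out (adjusted p = 0.0807) and in the methods' own test (0.0577), and the change lay between −2.75 and −2.51.

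Ankrd1 fell after ventilation in jnk1-/- lungs, and in both genotypes every ventilated array lay below the controls. Its log2 intensity was 3.25, 4.09, 6.07 and 5.37 in ventilated jnk1-/- mice, against 7.02, 6.57 and 6.66 in jnk1-/- controls. It was 3.87, 5.08, 4.88 and 5.62 in ventilated wild-type mice, against 6.83, 6.62 and 7.08 in wild-type controls. The ventilated arrays spread more widely than the controls, and 1 of 4 in each genotype lay at the floor of the authors' table, where a level is only an upper bound. The change was −2.05 in jnk1-/- lungs (standard error 0.58, adjusted p = 0.0396 from limma), a 4.15-fold lower level, and −1.98 in wild-type lungs (0.58, adjusted p = 0.0829), which did not pass. The difference between the genotypes' changes was −0.07 with a 95% interval of −1.86 to 1.72. In jnk1-/- lungs the call was lost without any 1 of the 3 control replicates (adjusted p = 0.122, 0.0859 and 0.0835 without replicates 1, 2 and 3). It was also lost without ventilated replicate 1 (0.0750) or 2 (0.0960), with quantile normalization (0.0501) and with limma's fast cyclic loess (0.0561). With the closer control pairs averaged it was lost as well (0.123). It was kept in 6 of 16 alternatives.

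Summed markers of several other tissues moved with Ccn5 and Ankrd1, though not all single markers did. The summed level of 8 measured adipocyte markers was 11.7 to 12.6 in ventilated and 12.9 to 14.6 in control jnk1-/- lungs, and 11.7 to 12.4 in ventilated and 12.9 to 13.3 in control wild-type lungs, with no overlap in either genotype. Of these 8 markers, 4 fell in jnk1-/- and 3 in wild-type lungs, among them Adipoq, the fat cell hormone adiponectin (−2.64 in both), and Thrsp, a lipogenic nuclear protein (−3.89 and −3.65). Thrsp lay at the authors' floor on 2 of 4 ventilated jnk1-/- and 3 of 4 ventilated wild-type arrays, where its level is only an upper bound, and Lipe, hormone-sensitive lipase, lay there on every array but 1. The summed level of 10 measured cardiac muscle markers was 13.2 to 13.8 in ventilated and 13.0 to 14.8 in control jnk1-/- lungs, and 13.0 to 13.7 in ventilated and 13.9 to 14.7 in control wild-type lungs. None of the 10 passed the test in either genotype, but all of them were lower after ventilation in wild-type lungs, by −1.45 to −0.88. The summed level of 9 mesothelial markers was 12.3 to 13.0 in ventilated and 13.0 to 13.3 in control jnk1-/- lungs, and 12.3 to 12.8 in ventilated and 12.5 to 13.1 in control wild-type lungs. Of these, Igfbp5 fell in both genotypes and Msln, mesothelin, by −2.46 in wild-type lungs, with 2 of 4 ventilated arrays at the authors' floor. In the other direction, Rspo1 rose by 0.79 in jnk1-/- lungs and Krt8 by 3.52 in wild-type lungs, with 2 of 3 wild-type controls at the floor. The sums of cartilage, skeletal muscle and stratified squamous epithelium markers were also lower after ventilation without overlap in both genotypes. For cartilage the sum was 8.75 to 9.12 against 9.24 to 9.67 in jnk1-/- lungs, and 8.63 to 9.14 against 9.24 to 9.62 in wild-type lungs. In wild-type lungs it was 9.81 to 10.3 against 10.5 to 10.6 for skeletal muscle and 8.85 to 9.15 against 9.41 to 9.60 for squamous epithelium. Single markers there were less uniform. Of 15 skeletal muscle markers 0 were called (median −0.25). Of 16 squamous markers 2 fell and 1 rose, Sprr1a (4.78, all 3 controls at the authors' floor), with a median of 0.31. In jnk1-/- lungs 14 of 15 and 14 of 16 fell. Of 10 cartilage markers 1 fell in each genotype, with medians of 0.08 in jnk1-/- and −0.17 in wild-type lungs. The part of these tissues in the lower Ccn5 and Ankrd1 levels was not tested.

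**Figure D2:**
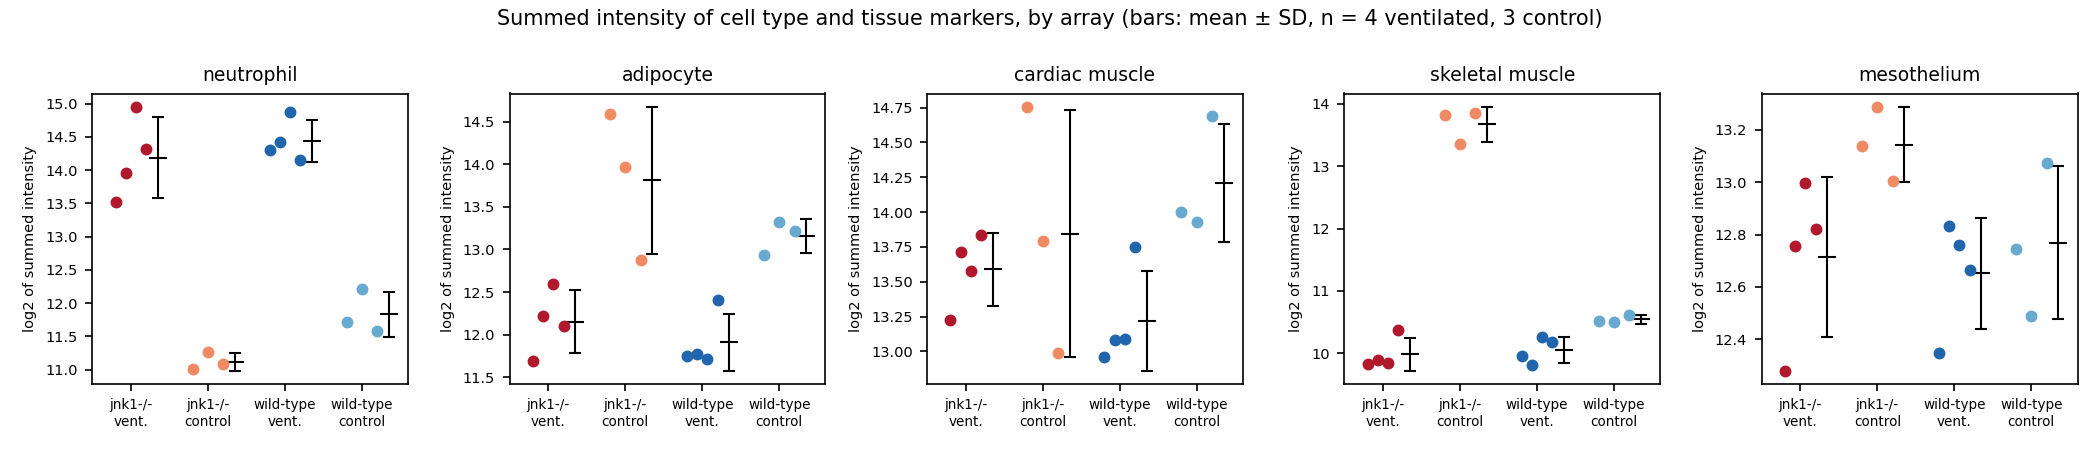
Log2 of the summed intensity of the markers of 5 cell types or tissues (y axis) in the 4 groups (x axis), with 1 point per array and the mean ± SD beside the points (n = 4 ventilated and 3 control arrays per genotype). The adipocyte and skeletal muscle sums were lower on all ventilated arrays than on the controls of the same genotype, and the neutrophil sum was higher.

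Ccn3 rose after ventilation in jnk1-/- lungs. Its log2 intensity was 7.19, 7.36, 8.07 and 7.56 in ventilated jnk1-/- mice, against 6.72, 6.48 and 5.85 in jnk1-/- controls. In ventilated wild-type mice it was 6.74, 6.36, 6.28 and 6.38, against 6.59, 5.78 and 6.11 in wild-type controls. All 4 ventilated jnk1-/- arrays lay above the other 10 arrays, and the other 3 groups overlapped. The change was 1.20 in jnk1-/- lungs (standard error 0.28, adjusted p = 0.0176 from limma), a 2.29-fold higher level, and 0.28 in wild-type lungs (0.28, adjusted p = 0.625). The call in jnk1-/- lungs was lost without jnk1-/- control replicate 3, which had the lowest value (0.95, adjusted p = 0.0607). It was also lost in the methods' own test (0.186), with only the groups compared in the fit (0.0843) and with a replicate block (0.0549). It was kept in 13 of 17 alternatives.

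Ccn2 showed a like order of groups without passing the test. Its log2 intensity was 11.30, 10.85, 11.02 and 11.04 in ventilated jnk1-/- mice, against 10.21, 10.51 and 9.41 in jnk1-/- controls. It was 9.90, 9.56, 9.59 and 10.41 in ventilated wild-type mice, against 10.21, 9.18 and 10.02 in wild-type controls. The ventilated jnk1-/- arrays were again the 4 highest of all 14, with the smallest spread of the groups (SD 0.19). The difference from the jnk1-/- controls was 1.01 (95% interval 0.31 to 1.71, adjusted p = 0.0621 from limma), and the difference between ventilated and control wild-type mice was 0.06 (−0.64 to 0.76).

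Summed markers of stromal cells moved with Ccn2 and Ccn3, though few single markers were called. The summed level of 12 fibroblast markers was 14.0 to 14.5 in ventilated and 13.2 to 13.8 in control jnk1-/- lungs, without overlap, and 13.8 to 14.0 in ventilated and 13.7 to 13.9 in control wild-type lungs. In jnk1-/- lungs 2 of the 12 rose, Pdgfra (2.08) and Col1a1 (1.37), and 1 fell, Lum (−1.61). In wild-type lungs 0 rose and 2 fell. Bright Pdgfra, with a mean of 12.67 in ventilated and 10.59 in control jnk1-/- lungs, weighs heavily in this linear sum. The median change over the 12 was 0.29 in jnk1-/- and −0.10 in wild-type lungs. The sum of 8 endothelial markers was 12.9 to 13.4 in ventilated and 12.7 to 12.9 in control jnk1-/- lungs, also without overlap, and 1 of them rose. In wild-type lungs it was 12.8 to 13.0 in ventilated and 13.0 to 13.1 in control mice, and 1 fell. The part of these cells in the levels of Ccn2 and Ccn3 was not tested.

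Ccn1 and Amotl2 were spread widely in ventilated jnk1-/- mice. Ccn1 had 11.04, 9.93, 8.92 and 11.86 there, against 9.74, 9.10 and 8.51 in jnk1-/- controls, and 8.81, 8.47, 9.26 and 9.30 in ventilated wild-type mice, against 8.64, 9.91 and 9.33 in wild-type controls. Amotl2 had 9.09, 8.11, 8.48 and 10.19 in ventilated jnk1-/- mice, against 8.52, 8.58 and 8.73 in jnk1-/- controls, and 7.80, 7.78, 7.68 and 8.38 in ventilated wild-type mice, against 8.55, 8.12 and 8.51 in wild-type controls. Both genes were highest on ventilated jnk1-/- replicate 4, and the groups overlapped. The Ccn1 difference with ventilation was 1.32 in jnk1-/- lungs (95% interval 0.02 to 2.62, adjusted p = 0.178 from limma) and −0.34 in wild-type lungs (−1.64 to 0.96, adjusted p = 0.811). Without ventilated jnk1-/- replicate 3, the lowest of its group, the first became 1.82 (adjusted p = 0.0362). For Amotl2 the differences were 0.36 (−0.51 to 1.22) and −0.48 (−1.34 to 0.39).

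Ccn4 was dim, and 7 of its 14 values were upper bounds. Its log2 intensity was 3.40, 2.47, 2.75 and 3.66 in ventilated jnk1-/- mice, against 4.33, 2.72 and 2.21 in jnk1-/- controls. It was 2.34, 2.77, 3.13 and 3.67 in ventilated wild-type mice, against 5.01, 4.06 and 4.77 in wild-type controls. At the floor of the authors' values lay 2 of 4 ventilated and 2 of 3 control jnk1-/- arrays, and 3 of 4 ventilated and 0 of 3 control wild-type arrays. The wild-type controls stood above the ventilated wild-type mice without overlap, with a difference of −1.64 that did not pass the test (95% interval −2.73 to −0.55, adjusted p = 0.0915 from limma). The jnk1-/- control arrays overlapped the wild-type controls through 1 array, replicate 1 (−1.53, adjusted p = 0.131), and without it the difference was −2.15 (adjusted p = 0.0467).

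Counted over the 7 genes, ventilation was followed by 1 rise and 2 falls in jnk1-/- lungs, where 12.1% of all probes were called, 7.07% as higher and 5.06% as lower. In wild-type lungs it was followed by 1 fall, where 3.58% of all probes were called, 1.26% as lower. The groups did not overlap for 4 of 7 genes in jnk1-/- lungs, 2 above and 2 below their controls, against 23.7% of all probes, 12.5% above and 11.2% below. They did not overlap for 3 of 7 in wild-type lungs, all below their controls, against 22.1% of all probes, 9.57% below. The median difference over the 7 genes was 0.36 in jnk1-/- lungs (−0.04 over all probes) and −0.48 in wild-type lungs (0.11 over all probes). The family therefore did not move in 1 direction with ventilation: Ccn3 rose and Ccn5 fell in the same jnk1-/- lungs.

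**Figure D3:**
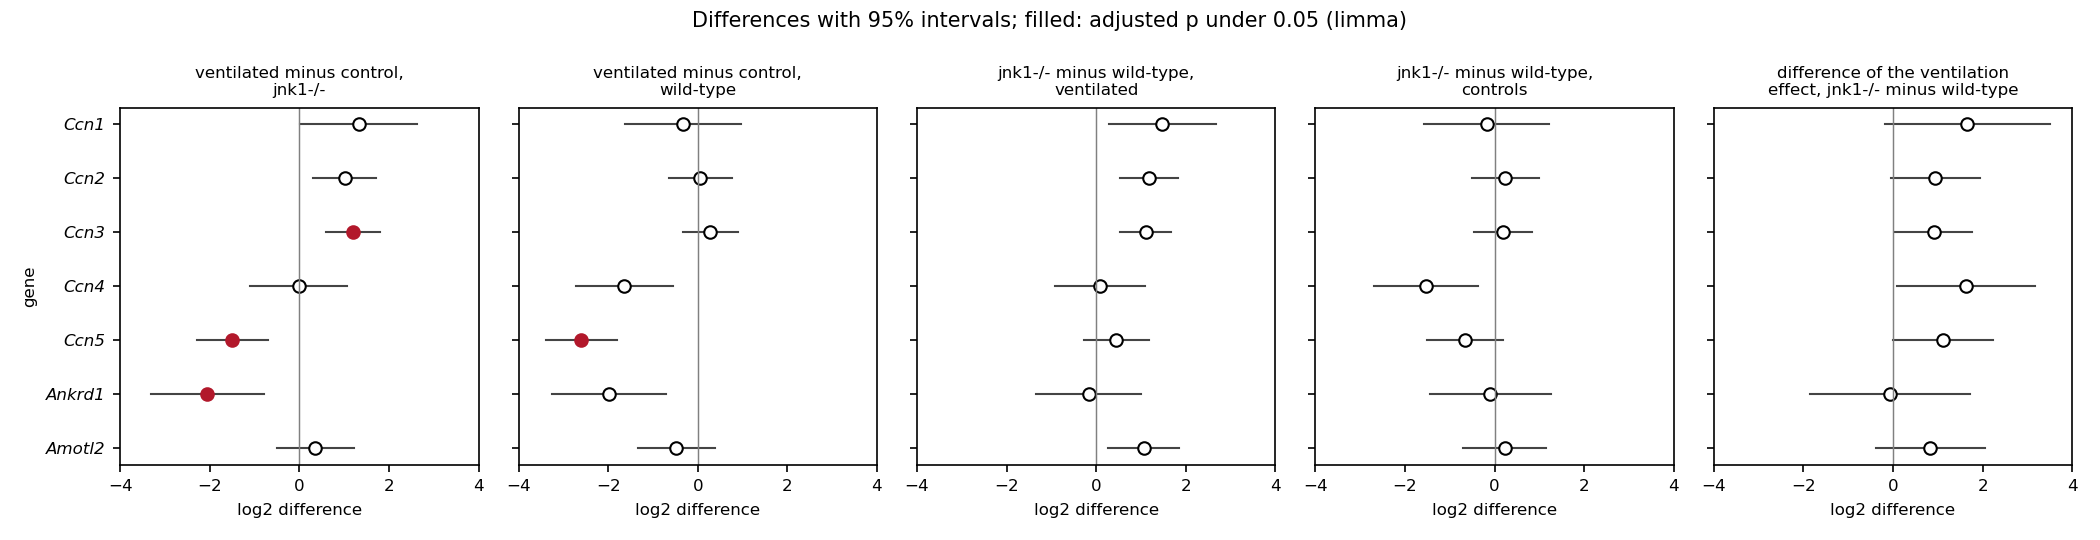
Log2 difference (x axis) of each gene (y axis) in the 5 contrasts, with its 95% interval; filled points have an adjusted p under 0.05 in limma. Filled points stand for Ccn3, Ccn5 and Ankrd1 with ventilation in jnk1-/- lungs and for Ccn5 in wild-type lungs.

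The genotypes were also set against each other directly. After ventilation, Ccn1 was higher by 1.48 in jnk1-/- than in wild-type lungs, Ccn2 by 1.19, Ccn3 by 1.10 and Amotl2 by 1.06, but none passed the test (adjusted p = 0.342, 0.127, 0.0965 and 0.296 from limma). None of the 7 genes was called, where 0.612% of all probes were, while 4 had an unadjusted p under 0.05, and the methods' own test called 0. The jnk1-/- arrays lay above the wild-type arrays without overlap for 2 of 7 genes, Ccn2 and Ccn3, against 3.88% of all probes above and 6.94% in either direction. With probes of low mean level left out, which adjusts over fewer probes, Ccn2 (adjusted p = 0.0265) and Ccn3 (0.0191) were called. The median over the 7 genes was 1.06, and 0.01 over all probes.

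Between controls, 0 of 7 genes were called by limma or by the methods' own test, where 3.99% of all probes were called, and 1, Ccn4, had an unadjusted p under 0.05. The groups did not overlap for 1 of 7, Ccn5, which was lower, against 27.4% of all probes, 11.4% lower, and the median over the 7 genes was −0.09 (0.13 over all probes). The 95% intervals were −0.51 to 0.99 for Ccn2, −0.46 to 0.84 for Ccn3 and −1.45 to 1.26 for Ankrd1.

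The difference of the ventilation effect, jnk1-/- minus wild-type, was above 0 for 6 of 7 genes, but 0 of 7 were called, where 0.398% of all probes were. It was 1.66 for Ccn1 (95% interval −0.18 to 3.49), 0.95 for Ccn2 (−0.04 to 1.94), 0.91 for Ccn3 (0.05 to 1.77) and 1.62 for Ccn4 (0.08 to 3.16), and the adjusted p lay at 0.346 and above from limma. Ccn3 and Ccn4 were the 2 genes with an unadjusted p under 0.05. The median over the 7 genes was 0.95, and −0.13 over all probes. The comparisons share their groups, so these values are not independent of the ones above.

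Among other target genes of YAP and TAZ, 20 of 24 listed were measured. Of these, 3 rose and 0 fell with ventilation in jnk1-/- lungs, and 4 rose and 0 fell in wild-type lungs. These counts stand beside 7.07% of all probes called higher in jnk1-/- lungs and 3.58% called in either direction in wild-type lungs. The medians, 0.31 and 0.08, compare with −0.04 and 0.11 over all probes. F3, tissue factor, which starts coagulation, averaged 10.26 in ventilated and 8.10 in control jnk1-/- lungs, and 9.81 in ventilated and 7.99 in control wild-type lungs. Its rise was 2.15 in jnk1-/- lungs (standard error 0.30, adjusted p = 0.00124 from limma) and 1.82 in wild-type lungs (0.30, adjusted p = 0.00706). Gadd45a, a stress gene of growth arrest, rose by 2.09 in jnk1-/- and 1.08 in wild-type lungs, and it was the 1 gene of the list that was higher in jnk1-/- than in wild-type lungs after ventilation (1.26, adjusted p = 0.0259). The study followed up Gadd45a after seeing these arrays. Nuak2, a kinase of the AMPK family, rose by 1.23 in jnk1-/- and 0.97 in wild-type lungs, and Tgfbi, a matrix protein that binds integrins, rose by 1.80 in wild-type lungs.

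**Figure D4:**
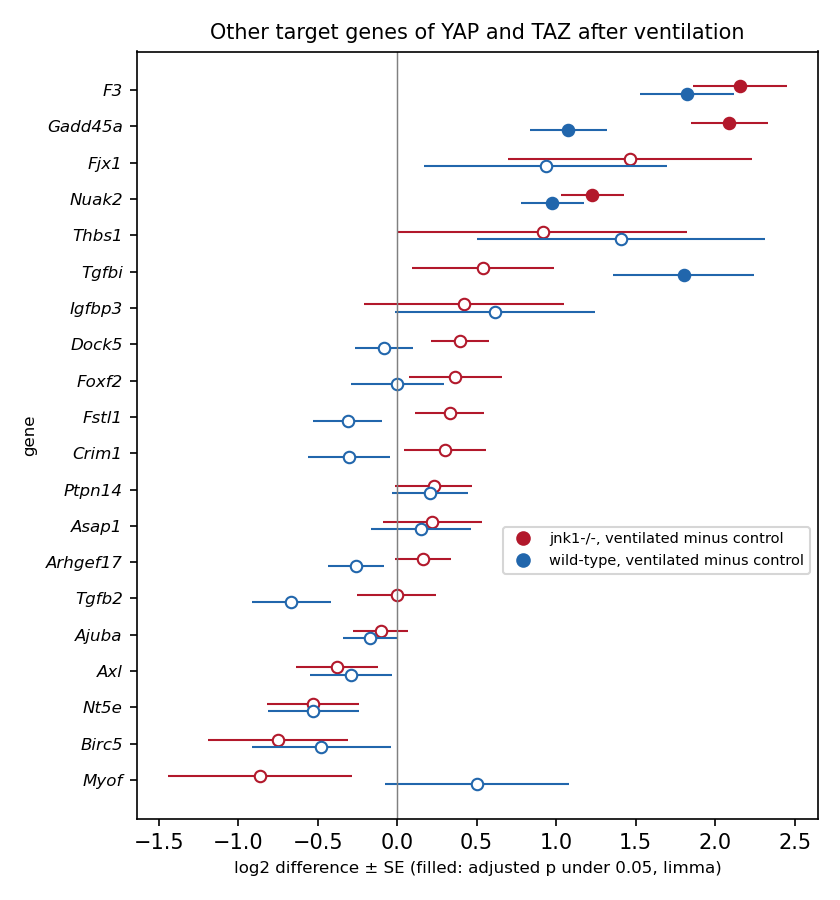
Log2 difference ± standard error (x axis), ventilated minus control, of the 20 measured other target genes of YAP and TAZ (y axis) in jnk1-/- lungs (red) and wild-type lungs (blue); filled points have an adjusted p under 0.05 in limma. F3, Gadd45a and Nuak2 rose in both genotypes, and no gene of the list fell past the threshold.

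Of the Hippo pathway, the kinase cascade that restrains YAP and TAZ, 19 of 22 components were measured and 0 were called with ventilation in either genotype by limma. Of all probes, 12.1% were called in jnk1-/- and 3.58% in wild-type lungs, and 3.99% between controls. Yap1 itself, taken for its role, averaged 6.70 in ventilated and 5.94 in control jnk1-/- lungs, and 5.69 in ventilated and 5.79 in control wild-type lungs, with differences of 0.76 (adjusted p = 0.176) and −0.10 (0.908). Wwtr1, which encodes TAZ, had differences of 0.67 (adjusted p = 0.179) and 0.03 (0.971). Stk4, which encodes the MST1 kinase, was the 1 component called between controls, with a mean of 5.95 in jnk1-/- and 7.36 in wild-type mice (−1.41, adjusted p = 0.0182).

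Of SRF and MRTF targets and regulators, 14 of 17 were measured. Over all probes, 7.07% were called higher and 5.06% lower with ventilation in jnk1-/- lungs, and 3.58% in either direction in wild-type lungs. In jnk1-/- lungs 3 rose with ventilation, the smooth muscle genes Cnn1 (1.01) and Tagln (0.61) and the focal adhesion gene Vcl (0.96), and 1 fell, the tropomyosin gene Tpm1 (−1.30). Cnn1 was also lower in jnk1-/- than in wild-type controls (−1.07, adjusted p = 0.0470 from limma). In wild-type lungs 1 rose, Zyx, another focal adhesion gene (1.25), and 0 fell. Smooth muscle markers moved with these genes, and Cnn1 and Tagln are themselves among them: their summed level was 12.6 to 13.1 in ventilated and 12.1 to 12.5 in control jnk1-/- lungs, and 12.4 to 13.2 in ventilated and 12.5 to 12.8 in control wild-type lungs. In jnk1-/- lungs 3 of 7 of these markers rose.

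The receptors and partners that CCN proteins bind were measured for 18 of 21 listed genes. In jnk1-/- lungs 4 rose and 0 fell with ventilation, where 7.07% of all probes were called higher and 5.06% lower. These were Lrp1, an endocytic receptor that binds CCN2 (1.40), Bmp2, a growth factor (1.67), and the integrin subunits Itgav (0.96) and Itga5 (1.95), with Itga5 at the authors' floor on 2 of 3 control arrays. In wild-type lungs Lrp1 rose by 0.82 (adjusted p = 0.0210 from limma) and Itgam, the integrin subunit of neutrophils and macrophages, by 1.54 (0.0121), and 0 fell. Neutrophil markers were higher on every ventilated array than on the controls: their summed level was 13.5 to 15.0 in ventilated and 11.0 to 11.3 in control jnk1-/- lungs, and 14.2 to 14.9 in ventilated and 11.6 to 12.2 in control wild-type lungs, and of 10 measured markers 5 rose and 1 fell in jnk1-/- lungs and 6 rose in wild-type lungs. Their part in the change of Itgam and Lrp1 was not tested. Itgb3, another integrin subunit, was higher in jnk1-/- than in wild-type controls (1.41), and all 3 wild-type controls lay at the authors' floor.

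Of the TGF-beta pathway, which induces Ccn2 in fibroblasts, 17 of 20 genes were measured. Among all probes, ventilation was followed by 7.07% called higher and 5.06% lower in jnk1-/- lungs, and by 3.58% called in wild-type lungs. In jnk1-/- lungs the elastic fiber gene Ltbp2 (1.33) and the co-receptor Tgfbr3 (1.85) rose and the endothelial receptor Acvrl1 fell (−1.18). Ltbp2 was also lower in jnk1-/- than in wild-type controls (−0.87). All 3 jnk1-/- controls lay at the authors' floor for Tgfbr3. In wild-type lungs Smad4, the shared signal carrier, rose by 1.73 with all 3 controls at the floor, and 0 fell. Another list held ankyrin repeat relatives of Ankrd1 beside muscle genes, and of it Ankrd2, Ankrd23, Casq2, Myom1 and Ttn were measured. Of these 5, Ankrd23 rose in wild-type lungs (2.76), again with all 3 controls at the floor, and 0 of 5 fell in either genotype.

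The pattern over the 14 arrays was compared between genes by Pearson's r, which is a description because the arrays share their groups. Within the 7 genes, Ankrd1 and Ccn5 were most alike (r = 0.91), followed by Ccn2 and Ccn3 (0.85) and by Ccn1 and Amotl2 (0.72). Ccn5 was most like Vkorc1 (0.98), Lbh (0.96) and Tmtc4 (0.95), and Ankrd1 most like Hmgn3, Rgs3 and Gga2 (0.94 to 0.95), among 8367 or 8368 probes that name 1 gene and have a mean at or above the median. Ccn2 was most like Hbp1 (0.92), Hnrnpu and D14Ertd436e, and Ccn3 most like Hnrnpu (0.92), Fam32a and Rtn4. Ccn1 was most like Ier3 (0.88), an immediate early gene, Dnajb4 and Tbpl1, and Amotl2 most like Dusp6 (0.86), a phosphatase of ERK, Trmt1l and Zfp207. Dim Ccn4 was most like Il15 (0.89) and the heart muscle genes Tnnt2 (0.85) and Pln (0.84).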

How the data were processed

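Per array, the authors deposited the log2 intensity of each of 19621 probes before any scaling to the other arrays. A second table holds log2 values that the authors had normalized by cyclic loess, with 24.5% of its values at 1 floor, 3.12. The arrays were CodeLink UniSet I 20K Bioarrays, and no quality filter was applied, since the files used here carry no flags.

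The per-array values went through cyclic loess on every pair of arrays (R 4.3.3, span 0.7, 3 rounds), with values at the lowest deposited value left out of the curves. The 1st percentile (−0.63) served as the lowest value. The medians of the normalized arrays were 5.74 to 5.88, and the correlation with the authors' table, over its values above the floor, was at least 0.989. A limma 3.58.1 model (lmFit, eBayes) of the 4 groups gave 5 contrasts. The methods' own test, Welch's, was an alternative, run on these unfiltered values without the study's other criteria. The number of arrays limits the precision. Lists hold pathway genes and cell type markers, each gene by its brightest probe, and a summed level is the log2 of the sum of their linear intensities. Named genes are the 7 genes, up to 4 genes of a list and contrast by adjusted p, Mapk8, and for likeness the 3 genes with the highest r among probes at or above the median mean; Yap1 and Wwtr1 were added for their role, and Lipe, after its values were seen, for its place at the floor. The members and lists were chosen with earlier results of these data known. Probes were named by the probe table (15353 with 1 gene, 91 with several, 4177 with none), and promoters by RefSeq, GRCm38.p6; 3 of 7 genes had a window. On simulated data with 200 changed probes, the steps recovered 53 to 63% of 4-fold changes between groups (41% for the interaction) and 7.5 to 19% of 2-fold changes (0%). Plots used matplotlib 3.10.9 under Python 3.11.15.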

Additional observations from a re-analysis of the deposited data

How the results depend on the processing

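No member changed direction in a called result under any alternative tried, and 608 of 641 values of single members kept their side of the threshold, while 24 lost and 9 gained a call. With ventilation in wild-type lungs 1 of 7 genes was called, but 3 in the authors' normalized table (Ccn4, adjusted p = 0.0224, and Ankrd1, 0.0322, besides Ccn5), 2 with array weights, 0 in the methods' own test, Welch's, and 0 with wild-type control replicates 2 and 3 both left out, an alternative chosen after seeing the data. Leaving out 1 array gave 1 throughout. With ventilation in jnk1-/- lungs 3 genes were called, but 0 in Welch's test and 0 with only the groups compared in the fit. Averaging the closer control pairs gave 1, and leaving out 1 array gave 1 to 4. Between controls 0 were called, and 0 to 1 with 1 array left out. After ventilation 0 were called between the genotypes, but array weights gave 1 (Ccn3, adjusted p = 0.0385), and leaving dim probes out gave 2. The difference of the ventilation effect gave 0 under every alternative tried. Beyond fewer probes or arrays, the cause of these changes was not tested.

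Replicate numbers are shared by the groups, but same-numbered arrays deviated together little (r from −0.05 to 0.08 over 13 pairs), so the numbers were not taken as pairs. With a replicate block 1 gene, Ankrd1, was called in jnk1-/- lungs, and Ccn3 (adjusted p = 0.0549) and Ccn5 (0.0569) were not.

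Over all probes, alternatives other than leaving out an array called 2 to 2259 with ventilation in wild-type lungs (703 as reported), 85 to 3755 in jnk1-/- lungs (2379), 0 to 2288 between controls (783), 17 to 225 between ventilated genotypes (120) and 18 to 318 for the difference of the effect (78), lowest in Welch's test where it was run. Leaving out 1 array gave 286 to 947, 1341 to 2711, 239 to 1086, 52 to 260 and 22 to 244 in the same order of comparisons. With the mean of all probes of a gene, 4 of 90 list counts moved by over 1.5 times, among them CCN receptors and partners in jnk1-/- lungs, to 2. Dim probes such as Ccn4 carry only bounds, and whether the arrays of the closer control pairs are fully independent was not tested.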
